A study of Mus musculus with 2 samples.

Results

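Visium spots that held transcripts of the T cell receptor or of its CD3 partners were described in 2 infarcted neonatal mouse hearts. A spot was chosen when it had at least 500 UMIs (unique molecular identifiers, each counting 1 captured RNA molecule) and at least 1 UMI in the sum of Trac, Trbc1, Trbc2, Cd3d, Cd3e and Cd3g. The rule chose 127 of 1662 spots, 86 of 851 in the PD1 KO section and 41 of 811 in the PD1 Het section. A Visium spot is a patch of tissue that usually covers several cells, so a chosen spot is a place where such RNA was captured and not a T cell.

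The T cell receptor of most T cells is a pair of alpha and beta chains, whose constant parts are encoded by Trac and by Trbc1 or Trbc2, and it signals through the CD3 proteins encoded by Cd3d, Cd3e and Cd3g. The receptor reads peptides on MHC molecules: class II molecules, carried mainly by dendritic cells, macrophages and B cells, are read by CD4 T cells, and class I molecules, carried by nearly all cells, are read by CD8 T cells. PD-1, the product of Pdcd1, is an inhibitory receptor of activated T cells that binds the ligand encoded by Cd274. After a cardiac injury T cells enter the heart in small numbers, among many more macrophages and fibroblasts.

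One heart came from a PD1 KO (PD1 -/-) mouse and the other from a PD1 Het (PD1 +/-) mouse, both of the C57BL/6 strain. Both animals had the left anterior descending artery ligated on postnatal day 2, and both hearts were taken 7 days later, so there was no sham-operated heart and no wild type among the sections described here. A frozen transverse section of 10 µm, cut 200 µm below the suture and permeabilized for 18 min, was placed on the array from each heart. Each genotype had 1 section. No test, p-value or standard error was therefore computed, and all intervals are 95% intervals that cover counting error only.

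The PD1 KO section held 23520499 UMIs and the PD1 Het section 12814494, with medians of 27134 UMIs per spot in PD1 KO and 15475 in PD1 Het. Mitochondrial genes took 15.9% of UMIs in the PD1 KO section and 25.6% in the PD1 Het section. The sections also differed in sex: Xist had 1 UMI in the PD1 KO section and 541 in the PD1 Het section, whereas 4 Y-linked genes had 2900 in PD1 KO and 1 in PD1 Het. Genotype, sex and depth thus cannot be told apart between the sections. Pdcd1 itself had 0 UMIs in both sections, where 3 counts correspond to 0.128 CPM (counts scaled to a total of 1000000 UMIs) in the PD1 KO section and 0.234 CPM in the PD1 Het section, so it does not check the labels. The sections shared 225 spot barcodes, which belong to positions of the array and not to cells.

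The promoters of MHC genes are shown because these genes, described further on, were among those with more UMIs in the chosen spots of the PD1 KO section. Each is the 300 bases from 250 before to 50 after the RefSeq transcription start on GRCm38.p6, read 5′ to 3′ on the strand of the gene. H2-Aa lies at chr17:34287774-34288073 on the minus strand and H2-Eb1 at chr17:34305617-34305916 on the plus strand, and both encode chains of class II molecules. H2-K1, at chr17:34000298-34000597 on the minus strand, encodes a class I heavy chain, and B2m, at chr2:122147437-122147736 on the plus strand, encodes the light chain shared by class I molecules. Capitals mark the Y box letters ATTGG on either strand (CCAAT when read on the other strand) and, in B2m, the core of the interferon-stimulated response element, spelled GAAA, any 2 bases and GAAA.
H2-Aa: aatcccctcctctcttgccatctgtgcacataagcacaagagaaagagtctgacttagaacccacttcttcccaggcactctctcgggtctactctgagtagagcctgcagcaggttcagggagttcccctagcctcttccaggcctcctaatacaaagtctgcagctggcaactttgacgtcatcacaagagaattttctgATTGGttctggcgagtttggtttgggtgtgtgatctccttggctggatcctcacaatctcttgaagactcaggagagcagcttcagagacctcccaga
H2-Eb1: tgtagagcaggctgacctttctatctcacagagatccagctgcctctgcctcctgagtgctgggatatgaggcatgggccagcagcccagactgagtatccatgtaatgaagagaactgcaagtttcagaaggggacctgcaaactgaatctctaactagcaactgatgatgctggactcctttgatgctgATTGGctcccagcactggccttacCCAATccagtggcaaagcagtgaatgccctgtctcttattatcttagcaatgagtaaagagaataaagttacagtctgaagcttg
H2-K1: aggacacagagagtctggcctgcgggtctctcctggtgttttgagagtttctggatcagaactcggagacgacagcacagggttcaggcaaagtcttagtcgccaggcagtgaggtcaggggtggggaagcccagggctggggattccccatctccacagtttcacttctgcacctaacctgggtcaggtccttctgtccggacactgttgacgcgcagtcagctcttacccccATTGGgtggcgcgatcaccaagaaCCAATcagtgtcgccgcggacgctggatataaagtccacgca
B2m: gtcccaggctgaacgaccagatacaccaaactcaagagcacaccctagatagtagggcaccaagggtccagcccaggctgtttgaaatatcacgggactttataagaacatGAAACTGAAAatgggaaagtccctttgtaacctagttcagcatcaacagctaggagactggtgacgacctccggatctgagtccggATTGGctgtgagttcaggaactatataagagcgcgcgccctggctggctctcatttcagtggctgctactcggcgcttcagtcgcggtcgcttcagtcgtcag
The Y box letters were found in all 4 windows, 48 bases before the start in H2-Aa and 53 before it in B2m, and once on each strand in H2-Eb1 and H2-K1. The same letters occur on either strand in 37.9% of 27025 promoters, so their presence is a description of these windows. The exact letters of the interferon-stimulated response element core were found in B2m alone among the 4 and, on either strand, occur in 3.49% of promoters. Variant spellings were not searched, so the other windows are not shown to lack the element.

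The transcripts that chose the spots were rare in both sections. The 6 genes had 110 UMIs in the PD1 KO section, or 4.68 CPM (3.84 to 5.64), and 47 UMIs in the PD1 Het section, or 3.67 CPM (2.70 to 4.88). The ratio of PD1 KO to PD1 Het was 1.28 with an interval of 0.898 to 1.83, which includes 1. In these bulk measures of a spot, fewer cells of a type and less RNA per cell cannot be told apart.

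Among the receptor chains, Trac (chr14:54220521-54224206, plus strand) had 54 UMIs in the PD1 KO section and 18 in the PD1 Het section, or 2.30 CPM in PD1 KO and 1.40 CPM in PD1 Het. Trbc1 (chr6:41538218-41539881, plus strand) had 18 UMIs in PD1 KO and 3 in PD1 Het, and Trbc2 (chr6:41546730-41548352, plus strand) had 15 in each. The beta chain genes are near copies: 34.5% of the 31-base words in the last 400 bases of Trbc1 transcripts also occur in Trbc2, and 16.2% of those of Trbc2 occur in Trbc1, so the split between them is uncertain. Cd3d had 10 UMIs in the PD1 KO section and 5 in the PD1 Het section, Cd3e had 4 in PD1 KO and 1 in PD1 Het, and Cd3g had 9 in PD1 KO and 5 in PD1 Het. Intervals of the PD1 KO to PD1 Het ratio included 1 for each of the 6 genes, from 0.545 (0.248 to 1.20) for Trbc2 to 3.27 (0.954 to 17.3) for Trbc1.

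**Figure D1:**
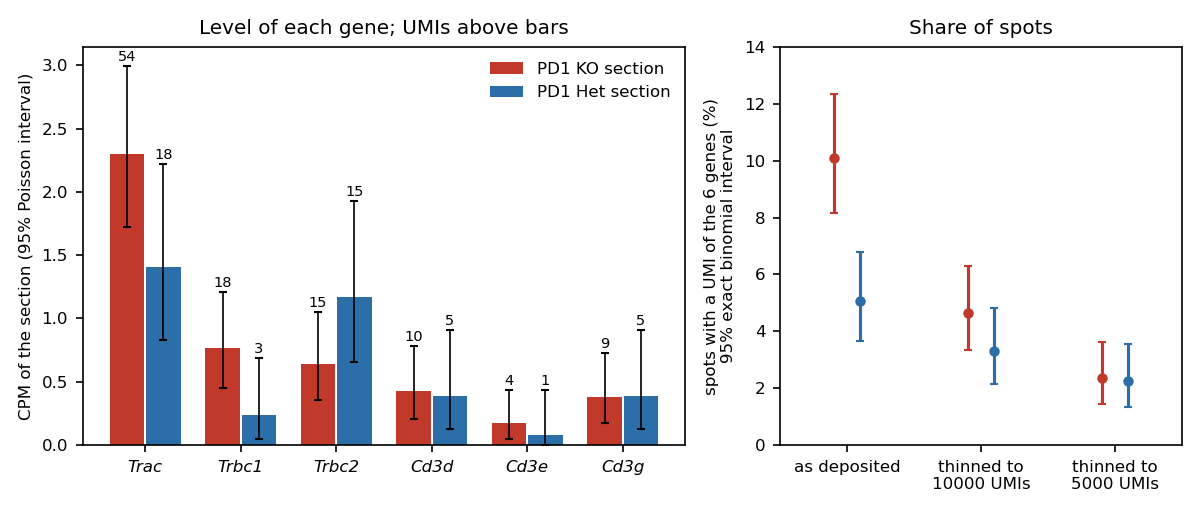
Level of each of the 6 genes in CPM (left, bars, with the UMIs printed above and 95% Poisson intervals) and share of spots with at least 1 UMI of them (right, points, with 95% exact binomial intervals), PD1 KO section in red and PD1 Het section in blue. The share is 10.1% in the PD1 KO section and 5.06% in the PD1 Het section as deposited, and in 1 draw of the thinning to 5000 UMIs it is 2.36% in PD1 KO and 2.26% in PD1 Het, where the means over all draws are 2.42% in PD1 KO and 1.86% in PD1 Het.

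The share of spots chosen was 10.1% (8.16 to 12.3) in the PD1 KO section and 5.06% (3.65 to 6.80) in the PD1 Het section. Spots of the PD1 KO section were deeper, so the share was also taken at equal depth. The cause of the difference in share was not tested. After each spot was thinned to 10000 UMIs, 39 of 839 spots (4.65%, 3.33 to 6.30) held one of the transcripts in the PD1 KO section and 25 of 759 (3.29%, 2.14 to 4.82) in the PD1 Het section. The intervals overlapped, with 12 shallower spots left out in PD1 KO and 52 in PD1 Het. At 5000 UMIs the shares were 2.36% (1.45 to 3.62) in PD1 KO and 2.26% (1.35 to 3.55) in PD1 Het, with 3 spots left out in PD1 KO and 16 in PD1 Het. Each of these shares is from 1 random draw. The means over all draws were 4.48% in PD1 KO and 3.43% in PD1 Het at 10000 UMIs, and 2.42% in PD1 KO and 1.86% in PD1 Het at 5000. A difference in the share of such spots was not detectable at equal depth.

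Within a section the chosen spots were of ordinary depth. Their median was 25927.5 UMIs in the PD1 KO section, against 27282 in spots without the transcripts, and 15098 against 15482.5 in the PD1 Het section. Chosen spots ran from 9435 to 45677 UMIs in the PD1 KO section and from 4949 to 27243 in the PD1 Het section, while kept spots without the transcripts began at 1832 UMIs in PD1 KO and 798 in PD1 Het. Across 10 bins of the depth order the share of chosen spots lay between 7.06% and 12.9% in the PD1 KO section. In the PD1 Het section it lay between 1.23% and 9.88%. The share showed no rise with depth. In PD1 KO it was 11.6% to 12.9% in the shallowest bins, 1 to 4, 12.9% in bin 9 and 7.06% in bin 10. In PD1 Het it was 9.88% in bin 9 and 1.23% in bin 10. Mitochondrial genes took 14.9% of UMIs in chosen spots and 16% in the others of the PD1 KO section, and 23.1% in chosen spots and 25.8% in the others of the PD1 Het section.

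Most chosen spots rested on a single molecule. In the PD1 KO section 72 of the 86 spots had 1 UMI, 8 had 2, 3 had 3, 2 had 4 and 1 had 5, and in the PD1 Het section 35 of the 41 had 1 and 6 had 2. A spot just inside the rule therefore differs by 1 UMI from the spots just outside it, which number 765 in PD1 KO and 770 in PD1 Het. Trac alone chose 44 spots of the PD1 KO section and 16 of the PD1 Het section, and the other 42 in PD1 KO and 25 in PD1 Het held a UMI of another of the genes. At least 2 different genes of the rule were seen together in 9 spots of the PD1 KO section and in 3 of the PD1 Het section.

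The 6 genes were seldom seen in the same spot, and all values that follow come from the genes of the rule. The 20 PD1 KO spots with a CD3 UMI held 11 UMIs of the receptor chains, where 1.82 were expected from spots of the same depth without CD3 UMIs, a ratio of 6.05 (3.16 to 11.6). The 11 such PD1 Het spots held 2, where 0.447 were expected (4.47, 1.05 to 19.1). Trac kept less company: the 48 PD1 KO spots with Trac held 5 UMIs of the other 5 genes against 3.11 expected (1.61, 0.638 to 4.06), and the 17 PD1 Het spots held 1 against 0.528. The UMIs of both kinds lay together in 4 spots of the PD1 KO section and in 2 of the PD1 Het section. In the other direction, the 70 PD1 KO spots with a receptor chain UMI held 4 CD3 UMIs against 1.59 expected (2.52, 0.845 to 7.50), and the 32 PD1 Het spots held 2 against 0.347 (5.77, 1.18 to 28.2). The ratios lay above 1 in both directions, with an interval that includes 1 for CD3 UMIs in the PD1 KO section and in both for Trac.

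**Figure D2:**
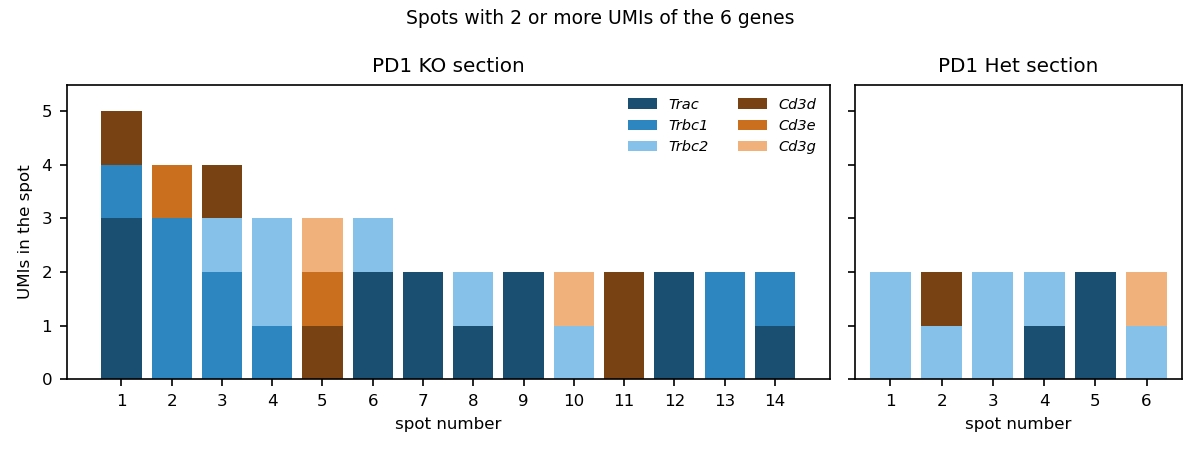
UMIs of each of the 6 genes (stacked colours) in every spot with at least 2 of them, 14 spots of the PD1 KO section (left) and 6 of the PD1 Het section (right), numbered from the most UMIs down. Spot 1 of the PD1 KO section has 5 UMIs, 5 further spots there have 3 or 4, and no PD1 Het spot exceeds 2.

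To describe the neighbourhood of these transcripts, UMIs of each gene or list in the chosen spots were set against the number expected from the rate per UMI in spots without the transcripts in the same depth bin of the same section, with 10 bins of equal size a section. The ratio of observed to expected is 1 where the chosen spots are like other spots of their depth. Genes of other cells are independent of the rule only in that it did not count them: chosen spots and their neighbours share tissue, and the values are descriptions.

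Other genes of T cells were the first check. Cd52, a surface peptide of lymphocytes and some myeloid cells, had 78 UMIs in the chosen spots of the PD1 KO section against 28.5 expected (2.74, 2.12 to 3.54), and 17 against 4.62 (3.68, 2.17 to 6.22) in the PD1 Het section. It was present in 37.2% of chosen spots against 23.5% of depth-matched spots without the transcripts in the PD1 KO section, and in 29.3% against 9.97% in the PD1 Het section. Ptprcap, a lymphocyte protein bound to the phosphatase CD45, had 9 UMIs against 2.55 expected in the PD1 KO section and 4 against 0.713 in the PD1 Het section. Bcl11b, a transcription factor that T cell development needs, had 10 against 3.56 in PD1 KO and 2 against 1.05 in PD1 Het. Further T cell genes had few UMIs and were mixed. In the PD1 KO section Il7r had 5 against 1.90, Lck 4 against 1.38 and Cd2 4 against 0.681. Lat had 2 against 1.88 there, Ltb 2 against 1.66, Cd28 2 against 1.39 and Cd6 0 against 0.299. In chosen spots of the PD1 Het section Lck, Cd2 and Cd28 had 1 each, and Il7r, Lat, Ltb and Cd6 had 0.

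The list of 26 T cell signalling and surface genes had 357 UMIs against 310 in the chosen spots of the PD1 KO section (1.15, 1.03 to 1.28) and 69 against 50.6 in the PD1 Het section (1.36, 1.07 to 1.74). One member, Ets1, a transcription factor also made by endothelial cells, took 219 of these UMIs in PD1 KO (ratio 0.865) and 37 in PD1 Het (0.962). Without it the list stood at 2.42 in the PD1 KO section and 2.64 in the PD1 Het section. Only 3 members in the PD1 KO section and 2 in the PD1 Het section had at least 5 UMIs expected in the chosen spots from the section's average, the limit below which single genes were not counted. Of these, 1 in each section, Cd52, was at least 1.5-fold higher. In all, 4.29% of the 11966 genes past the same limit were at least 1.5-fold higher and 3.66% at least 1.5-fold lower in the PD1 KO section. In the PD1 Het section these shares were 7.16% and 7.99% of 8550 genes. The median over all these genes was 0.03 (log2 ratio) in the PD1 KO section and 0.05 in the PD1 Het section, while the list's was -0.21 over its 3 counted members in PD1 KO, of opposite sign to the sum, and 0.91 over its 2 in PD1 Het.

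The list of 29 T cell lineage and state genes stood nearer to 1. It had 215 UMIs against 182 in the chosen spots of the PD1 KO section (1.18, 1.02 to 1.36), 1.04 (0.891 to 1.22) without the 6 spots with 3 or more UMIs of the rule, and 35 against 32.7 in the PD1 Het section (1.07, 0.759 to 1.51). At least 1 UMI of it lay in 83.7% of chosen and 85.3% of matched spots in the PD1 KO section, and in 53.7% of chosen and 53.3% of matched spots in the PD1 Het section. Of 4 counted members in the PD1 KO section 0 were at least 1.5-fold higher and 1 lower (median log2 ratio 0.01), and of 2 in the PD1 Het section 0 were higher or lower (-0.01). S1pr1, a receptor for exit from lymphoid tissue that endothelial cells also make, had the most UMIs, 118 against 118.4 in PD1 KO and 24 against 22.4 in PD1 Het.

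Genes that would tell kinds of T cell apart were at or near 0. Cd4 had 7 UMIs in the whole PD1 KO section, 1 of them in a chosen spot, and 3 in the PD1 Het section, none in a chosen spot. Cd8a had 2 UMIs in PD1 KO and 1 in PD1 Het, and Cd8b1 had 2 in PD1 KO and 0 in PD1 Het, none in a chosen spot. Foxp3, the factor of regulatory T cells, had 0 UMIs in the PD1 KO section and 1 in the PD1 Het section, outside the chosen spots. The cytotoxic genes Gzmb, Gzmk and Prf1 had 0 UMIs in both sections. At this depth the chosen spots could not be divided into CD4, CD8 or regulatory kinds.

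The summed list of natural killer and cytotoxic genes stood above 1 in both sections, on a few members. The list of 17 had 432 UMIs against 156 expected in the PD1 KO section (2.76, 2.48 to 3.08) and 58 against 38.8 in the PD1 Het section (1.5, 1.14 to 2.0). Ccl5, a chemokine of T cells, killer cells and activated dendritic cells, had 196 UMIs against 5.02 in the PD1 KO section and 4 against 0.252 in the PD1 Het section, but 155 of the 196 lay in spot 3. Klrd1, a chain of a killer cell receptor, had 6 against 0.616 in PD1 KO and 2 against 0.133 in PD1 Het, never more than 1 in a spot. Tyrobp, an adaptor of activating receptors in killer and myeloid cells, had 137 against 87.9 in PD1 KO (1.56, 1.30 to 1.87) and 35 against 21.7 in PD1 Het (1.61, 1.14 to 2.29). It was seen in 60.5% of chosen and 48.7% of matched spots of the PD1 KO section, and in 56.1% of chosen and 34.2% of matched spots of the PD1 Het section. It held 35 of the 58 UMIs of the list in the PD1 Het section. Fcer1g, another adaptor of killer and myeloid cells, had 78 against 60.2 in PD1 KO and 15 against 16.3 in PD1 Het. Without spot 3, which held most UMIs of the list, the PD1 KO ratio was 1.73 (1.51 to 1.97), and in the PD1 Het spots with Trac alone the list stood at 1.01. Macrophage genes, given further on, stood above 1 in the PD1 KO section as well. With spots matched on macrophage share as well as depth, the cytotoxic list stood at 2.14 there. The cause of these values was not tested. The median of the 3 counted members in the PD1 KO section was 0.64 (log2 ratio), and 2 of them were at least 1.5-fold higher; in the PD1 Het section it was 0.29 over 2 members, of which 1 was higher.

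Chemokines that draw lymphocytes also stood above 1 when summed. The list had 2.06 times the expected UMIs in the chosen spots of the PD1 KO section (1.88 to 2.25) and 1.51 times in the PD1 Het section (1.24 to 1.85). Ccl5 belongs to this list and to the cytotoxic one, so they are not separate, and it took 196 of the 603 UMIs in PD1 KO. Without spot 3, which held 177 of the 603, the PD1 KO ratio was 1.47 (1.33 to 1.63). Within the PD1 KO section Ccl22, a dendritic cell chemokine, had 14 UMIs against 1.58, Ccl8 had 20 against 6.63 and Ccl2, which draws monocytes, had 27 against 11.9. The spot richest in each held 8 of the 14 UMIs of Ccl22, 10 of the 20 of Ccl8 and 9 of the 27 of Ccl2. In the PD1 Het section the list rested on Cxcl12, a chemokine of stromal cells, with 72 UMIs against 38.3 (1.88, 1.47 to 2.40), and on Ccl8, whose 8 UMIs lay in 1 spot. Cxcl12 in the PD1 KO section had 214 against 197. Ccl21a, made by lymphatic vessels and lymphoid stroma, had 23 against 1.94 in the PD1 KO section, 22 of them in 3 spots, and 3 against 9.97 in the PD1 Het section, out of 228 UMIs in the whole section. Ccr7, the receptor for Ccl21a, had 22 against 1.34 in the PD1 KO section, 10 of them in spot 3, and 1 against 0.268 in the PD1 Het section. Of 7 counted members of the list, 3 were at least 1.5-fold higher in the PD1 KO section (median log2 ratio 0.58). Of 3 in the PD1 Het section, 1 was higher and 1 lower (-0.36, of opposite sign to the sum).

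**Figure D3:**
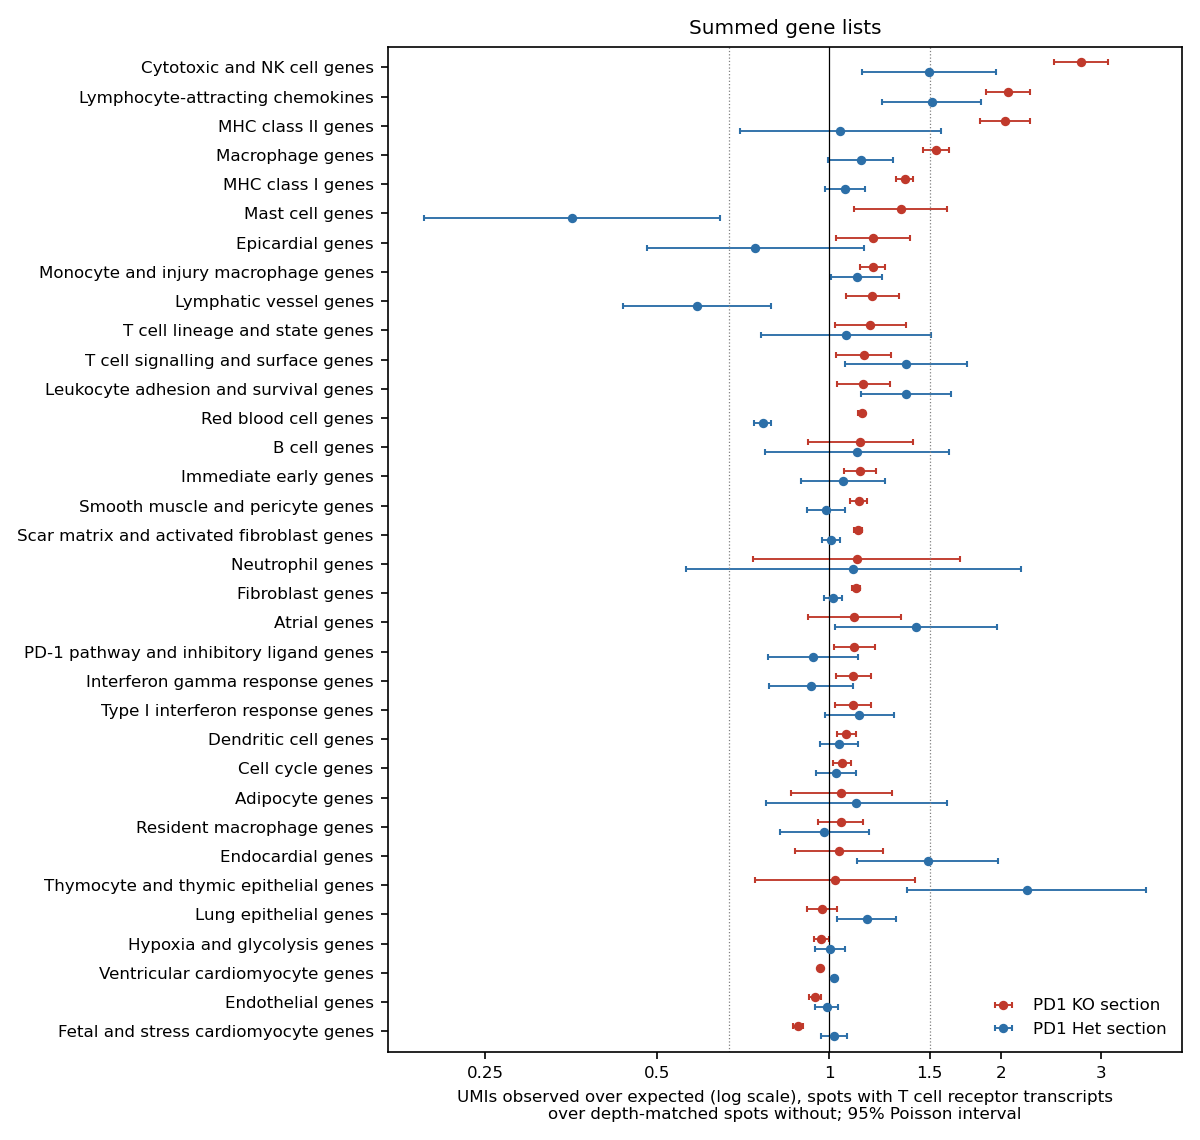
Observed over expected UMIs of each of 34 gene lists in spots with the transcripts, relative to depth-matched spots without them (log axis, 95% Poisson intervals), PD1 KO section in red and PD1 Het section in blue, ordered by the PD1 KO value. Cytotoxic and killer cell genes (2.76), chemokines (2.06) and MHC class II genes (2.03) lead in the PD1 KO section; dotted lines mark 1.5-fold in each direction.

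MHC class II genes were higher in the chosen spots of the PD1 KO section and near the expected number in the PD1 Het section. The list had 464 UMIs against 228 in the PD1 KO section (2.03, 1.84 to 2.25) and 25 against 23.9 in the PD1 Het section (1.05, 0.697 to 1.57). Cd74, the invariant chain that guides class II molecules, had 203 UMIs against 90.7 in the PD1 KO section and 8 against 9.24 in the PD1 Het section. H2-Ab1, which encodes a class II beta chain, had 111 against 44.1 in PD1 KO and 7 against 4.64 in PD1 Het. H2-Aa, which encodes its alpha partner, had 70 against 36.1 in PD1 KO and 2 against 3.36 in PD1 Het. H2-Eb1 had 56 against 36 in PD1 KO and 3 against 2.90 in PD1 Het. These 4 genes were at least 1.5-fold higher in the PD1 KO section, out of 5 counted members (median log2 ratio 0.96). Only Cd74 was counted in the PD1 Het section.

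The class II UMIs were concentrated in a few spots. Class II UMIs were seen in 57.0% of the chosen spots of the PD1 KO section and in 54.5% of matched spots without the transcripts, and in 36.6% of chosen and 31.2% of matched spots of the PD1 Het section. The median spot had 0.368 class II UMIs per 10000 when chosen and 0.297 when not in the PD1 KO section. The 3 chosen spots with the most class II UMIs held 37.1% of those in chosen spots of the PD1 KO section. Between the sections, class II genes stood at 200 CPM in the chosen spots of the PD1 KO section and 39.4 CPM in those of the PD1 Het section, a ratio of 5.08 (3.4 to 7.93). In spots without the transcripts they stood at 89.7 CPM in PD1 KO and 38.7 CPM in PD1 Het, a ratio of 2.32 (2.10 to 2.57).

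Class I genes followed with smaller values. The list had 1.36 times the expected UMIs in the PD1 KO section (1.31 to 1.40) and 1.07 times in the PD1 Het section (0.982 to 1.16). Without the 6 PD1 KO spots with 3 or more UMIs of the rule it stood at 1.22. The median PD1 KO spot had 13.7 UMIs of the list per 10000 when chosen and 11.6 when not. H2-K1 had 568 UMIs against 330 (1.72, 1.57 to 1.88) in the PD1 KO section and 60 against 42.9 (1.40, 1.07 to 1.82) in the PD1 Het section. In PD1 KO 3 chosen spots held 33.3% of the 568, and the median spot had 1.17 per 10000 when chosen and 1.11 when not. H2-D1, another class I heavy chain, had 441 against 250 in PD1 KO and 52 against 44.7 in PD1 Het. B2m had 976 against 628 in PD1 KO (1.55, 1.45 to 1.66) and 84 against 91.0 in PD1 Het (0.923, 0.741 to 1.15). Psmb9, a subunit of the immunoproteasome that cuts peptides for class I, had 25 against 12.3 in PD1 KO and 4 against 2.32 in PD1 Het. Psmb10, another subunit, had 149 against 159 in PD1 KO and 45 against 50.1 in PD1 Het. Of 16 counted members, 7 were at least 1.5-fold higher in the PD1 KO section (median log2 ratio 0.48). Of 12 in the PD1 Het section, 2 were higher and 2 lower (0.12).

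Interferon genes differed little. Genes of the interferon gamma response stood at 1.1 (1.03 to 1.18) in the chosen spots of the PD1 KO section and at 0.930 (0.785 to 1.1) in those of the PD1 Het section, and type I interferon genes at 1.1 in PD1 KO and 1.13 in PD1 Het. Ifng itself had 1 UMI in the PD1 KO section, in the chosen spot 5, and 0 in the PD1 Het section. Cd274, the PD-1 ligand gene, had 9 UMIs in chosen spots against 4.44 expected in the PD1 KO section (2.03, 0.979 to 4.19) and 0 against 0.298 in the PD1 Het section, out of 50 UMIs in the whole PD1 KO section and 4 in the PD1 Het section. The list of the PD-1 pathway and inhibitory ligands had a median log2 ratio of 0.11 in the PD1 KO section and -0.04 in the PD1 Het section.

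Macrophage genes were higher in chosen spots of the PD1 KO section, where the 3 spots richest in them held 18.1% of the UMIs. The list of 14 had 1643 UMIs at a ratio of 1.54 (1.46 to 1.62) in the PD1 KO section and 240 UMIs at 1.14 (0.998 to 1.30) in the PD1 Het section. The median spot had 4.27 macrophage UMIs per 10000 when chosen and 2.77 when not in the PD1 KO section, and 2.75 when chosen and 2.33 when not in the PD1 Het section. Lyz2, which encodes a lysozyme, had 497 against 304 in PD1 KO and 58 against 52.3 in PD1 Het. Ctss, a protease that trims the invariant chain, had 159 against 82.8 in the PD1 KO section and 3 against 5.82 in the PD1 Het section. C1qa, a complement chain made by tissue macrophages, had 184 against 123 in PD1 KO, just under 1.5-fold, and 44 against 29.3 in PD1 Het, just over it. Of 14 counted members, 7 were at least 1.5-fold higher in the PD1 KO section (median log2 ratio 0.59). Of 9 in the PD1 Het section, 1 was higher and 1 lower (0.07).

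Among injury macrophage genes 6 members were higher in the PD1 KO section, while the sum was closer to 1. Genes of monocytes and injury macrophages stood at 1.19 (1.13 to 1.25) in the PD1 KO section and at 1.12 (1.01 to 1.24) in the PD1 Het section, and those of resident macrophages at 1.05 in PD1 KO and 0.982 in PD1 Het. Of 12 counted members of the first list in the PD1 KO section, 6 were at least 1.5-fold higher (median log2 ratio 0.63), and of 6 in the PD1 Het section 0 were higher or lower (0.16). The members with the most UMIs were Fabp5, a fatty acid binding protein, with 646 against 659 in PD1 KO and 201 against 167 in PD1 Het, and Cd63, a membrane protein of lysosomes, with 517 against 453 in PD1 KO and 115 against 114.1 in PD1 Het. In the PD1 KO section Gpnmb had 91 UMIs against 38.2, Lgals3 81 against 43.6 and Arg1 42 against 3.86. The chosen spot richest in Gpnmb held 26 of its UMIs, and a different spot held 26 of those of Arg1. The dendritic cell list stood at 1.07 in PD1 KO and 1.04 in PD1 Het, and Cst3, which many cells make, took 2164 of its 2719 UMIs in PD1 KO and 580 of 688 in PD1 Het. Itgax, which encodes CD11c of dendritic cells and some macrophages, had 20 against 6.93 in the PD1 KO section and 1 against 0.562 in the PD1 Het section. Macrophage and class II genes were both higher in chosen spots of the PD1 KO section. With spots matched on macrophage share as well as depth, class II genes stood at 1.46 there, and cytotoxic and killer cell genes at 2.14.

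Mast cell, lymphatic vessel and red blood cell genes stood above 1 in the PD1 KO section, where a few spots carried the excess, and below 1 in the PD1 Het section, a difference that was not tested. Mast cell genes stood at 1.33 (1.11 to 1.61) in the chosen spots of the PD1 KO section and at 0.355 (0.196 to 0.645) in those of the PD1 Het section, where Mcpt4 and Tpsb2 had 0 UMIs against 5.07 and 4.90 expected. In the PD1 KO section 51.2% of chosen spots held a mast cell UMI against 35.7% of matched spots, but the ratio was 1.07 without the 6 spots with 3 or more UMIs of the rule. In the PD1 Het section the shares were close, 22.0% of chosen and 23.6% of matched spots. One PD1 Het spot without the transcripts held 94 of the 648 mast cell UMIs of such spots. Lymphatic vessel genes stood at 1.19 in PD1 KO, or 1.08 (0.966 to 1.22) without those 6 spots, and at 0.587 in PD1 Het. Red blood cell genes stood at 1.14 in PD1 KO and 0.765 in PD1 Het, but 1 chosen spot held 5609 of their 19894 UMIs in PD1 KO, and without the richest spot of each section they stood below 1 in both, at 0.846 in PD1 KO and 0.674 in PD1 Het. B cell genes stood at 1.13 (0.917 to 1.40) in PD1 KO and 1.12 (0.773 to 1.62) in PD1 Het. Neutrophil genes stood at 1.12 with 25 UMIs in PD1 KO and 1.1 with 9 UMIs in PD1 Het. Genes of thymocytes and thymic epithelium, included because thymus lies close to the heart of a young mouse, stood at 1.02 in the PD1 KO section and at 2.22 in the PD1 Het section. In the PD1 Het section Cd1d1, also expressed outside the thymus, had 17 of those 19 UMIs, while Rag1 had 0 in chosen spots of both sections. In the PD1 Het section Vcam1, an adhesion molecule that binds leukocytes, had 29 UMIs against 14.1, where it had 64 against 64.3 in the PD1 KO section.

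Spots were next ordered by what else they held. In 5 bins of equal size by macrophage share, 17.1% (11.7 to 23.6) of PD1 KO spots in the highest bin were chosen, against 5.26% (2.43 to 9.76) in the lowest. In the PD1 Het section 5.56% of the highest and 4.29% of the lowest bin were chosen. Along scar matrix share, 7.6%, 4.71%, 11.8%, 14.7% and 11.8% of spots were chosen in the PD1 KO section from the lowest to the highest bin, and 3.68%, 4.94%, 3.70%, 7.41% and 5.56% in the PD1 Het section. Along ventricular cardiomyocyte share, 6.47% of spots in the highest bin and 11.1% in the lowest were chosen in the PD1 KO section, and 5.56% in the highest and 3.07% in the lowest in the PD1 Het section.

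**Figure D4:**
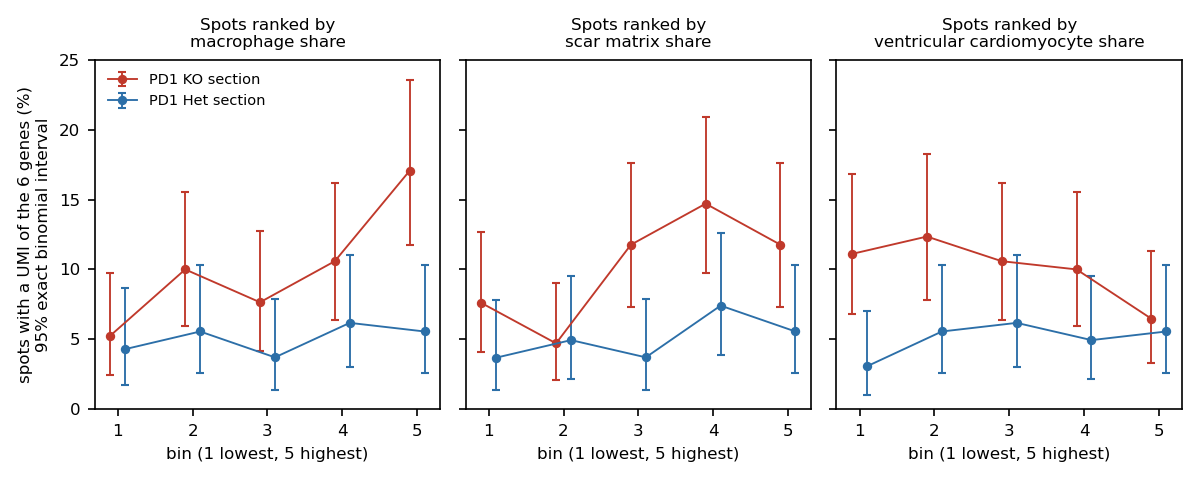
Share of spots with the transcripts (95% exact binomial intervals) in 5 bins of spots (1 lowest, 5 highest) ordered by the share of their UMIs from macrophage, scar matrix and ventricular cardiomyocyte genes, PD1 KO section in red and PD1 Het section in blue. The PD1 KO share reaches 17.1% in the bin richest in macrophage genes, and PD1 Het shares stay between 3.07% and 7.41% in all 3 orders.

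Matrix and muscle genes differed by small amounts. Scar matrix genes stood at 1.13 (1.11 to 1.14) in the chosen spots of the PD1 KO section and at 1.01 (0.973 to 1.05) in those of the PD1 Het section, and fibroblast genes at 1.12 in PD1 KO and 1.02 in PD1 Het. Ventricular cardiomyocyte genes stood at 0.965 (0.960 to 0.969) in PD1 KO and 1.02 (1.01 to 1.03) in PD1 Het. Fetal and stress cardiomyocyte genes stood at 0.883 in PD1 KO and 1.02 in PD1 Het. Their median log2 ratio was 0.01 in PD1 KO, where 1 of 10 members was at least 1.5-fold lower, and 0.12 in PD1 Het. One member, Nppa, had 4334 UMIs against 5341 in PD1 KO. The median spot had 25.6 UMIs of the list per 10000 when chosen and 26.1 when not in PD1 KO. The median log2 ratio of scar matrix genes was 0.14 in PD1 KO and -0.05 in PD1 Het, and that of ventricular cardiomyocyte genes -0.06 in PD1 KO and 0.02 in PD1 Het.

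Across all genes few differences recurred. Of 3548 genes with at least 20 UMIs expected in the chosen spots of each section, 1 gene (0.0282%) was at least 1.5-fold higher in both sections and 0 (0%) at least 1.5-fold lower. The gene was Tyrobp. In the PD1 KO section alone 0.282% were higher and 0.0282% lower, and in the PD1 Het section 1.27% were higher and 1.38% lower, from fewer UMIs.

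The 12 genes whose lower interval bound was highest over both sections had bounds above 1 in each. They were picked by these bounds from among the 3548 genes, so the bounds restate the choice and are descriptions. After Tyrobp came Ecm1, a secreted matrix protein, with 124 UMIs against 91.5 in the PD1 KO section and 49 against 30.0 in the PD1 Het section. C1qa and H2-K1, given above, were among them, as was Lgmn, a lysosomal protease, with 270 against 220 in PD1 KO and 79 against 55.9 in PD1 Het. Loxl1, a crosslinker of elastin, had 448 against 382 in PD1 KO and 137 against 108 in PD1 Het. Dcn, the proteoglycan decorin, had 1369 against 1241 in PD1 KO and 377 against 313 in PD1 Het. Cald1, Cmc2, Ckap4, S100a11 and Sumo3 completed the 12, with ratios from 1.17 to 1.25 in the PD1 KO section and from 1.29 to 1.54 in the PD1 Het section.

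The 12 genes with the lowest upper bound over both sections were likewise picked by their bounds. Of them, 6 had intervals below 1 in each section. These were Nppa, Ppa2, Dym, Atp5g1, Sdhc and Gpsm1, while the intervals of Vegfa, Uqcr11, Txlnb, Etfdh, Myl3 and Cs included 1 in at least 1 section. Nppa, the atrial natriuretic peptide gene that immature and stressed ventricle also makes, had 4334 UMIs against 5341 (0.812) in the PD1 KO section and 182 against 234 (0.777) in the PD1 Het section. Vegfa, an endothelial growth factor, had 315 against 353 in PD1 KO and 42 against 61.4 in PD1 Het. Ppa2, a mitochondrial pyrophosphatase, had 177 against 220 in PD1 KO and 28 against 45.7 in PD1 Het, and Dym had 57 against 78.5 in PD1 KO and 14 against 25.3 in PD1 Het. Sdhc, a subunit of succinate dehydrogenase, had 941 against 1017 in PD1 KO and 155 against 185 in PD1 Het. Atp5g1, Gpsm1, Uqcr11, Txlnb, Etfdh, Myl3 and Cs completed the 12, with ratios from 0.852 to 0.963 in the PD1 KO section and from 0.719 to 0.984 in the PD1 Het section.

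The chosen spots were not alike. PD1 KO spots with 3 or more UMIs stood further above 1 for class II, class I, cytotoxic and chemokine genes than the others. Scar matrix genes stood below 1 in them, but above 1 in the spots with 2 or more UMIs. The 6 PD1 KO spots with 3 or more UMIs had 144 class II UMIs against 14 (10.3, 8.63 to 12.2), 208 UMIs of cytotoxic and killer cell genes against 11.2 (18.6, 16 to 21.7) and 229 of chemokines against 20.7 (11.1, 9.65 to 12.7). Spot 3 alone held 73 of the 144, 166 of the 208 and 177 of the 229. The 5 spots besides spot 3 stood at 7.65 (6.00 to 9.77) for class II genes, 4.78 (3.5 to 6.53) for cytotoxic and killer cell genes and 3.05 (2.31 to 4.02) for chemokines. These 5 were not alike for class II genes. Spot 1 held 18 UMIs of Cd74, 10 of H2-Ab1, 9 of H2-Eb1 and 6 of H2-Aa, and spots 4 and 6 held no class II UMI. Over all 6 spots class I genes stood at 3.09 and scar matrix genes at 0.678. In the 14 PD1 KO spots with 2 or more UMIs scar matrix genes stood at 1.56. Without those 6 spots the PD1 KO ratios were 1.49 (1.33 to 1.68) for class II genes, 1.54 for cytotoxic and killer cell genes and 1.37 for chemokines. Macrophage genes stood at 1.54 (1.46 to 1.62) without them, as with them.

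Spots chosen by Trac alone were set beside those with another gene, which include all 6 PD1 KO spots with 3 or more UMIs. In the 42 PD1 KO spots with a UMI of another gene than Trac, class II genes stood at 3.14 (2.79 to 3.53), cytotoxic and killer cell genes at 4.29 (3.80 to 4.85) and macrophage genes at 1.89 (1.77 to 2.02). Without the 6 spots, the remaining 36 stood at 2.02 (1.73 to 2.36) for class II, 1.79 (1.47 to 2.16) for cytotoxic and killer cell and 1.95 (1.82 to 2.10) for macrophage genes. In the 44 PD1 KO spots with Trac alone the 3 lists stood at 1.12 (0.939 to 1.33), 1.35 (1.11 to 1.64) and 1.21 (1.12 to 1.31). In the PD1 Het section class II genes went the other way, with 8 UMIs against 15.0 in the 25 spots with another gene and 17 against 8.95 in the 16 with Trac alone. Macrophage genes stood at 1.27 (1.08 to 1.49) in the PD1 Het spots with another gene and at 0.957 (0.770 to 1.19) in those with Trac alone.

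**Figure D5:**
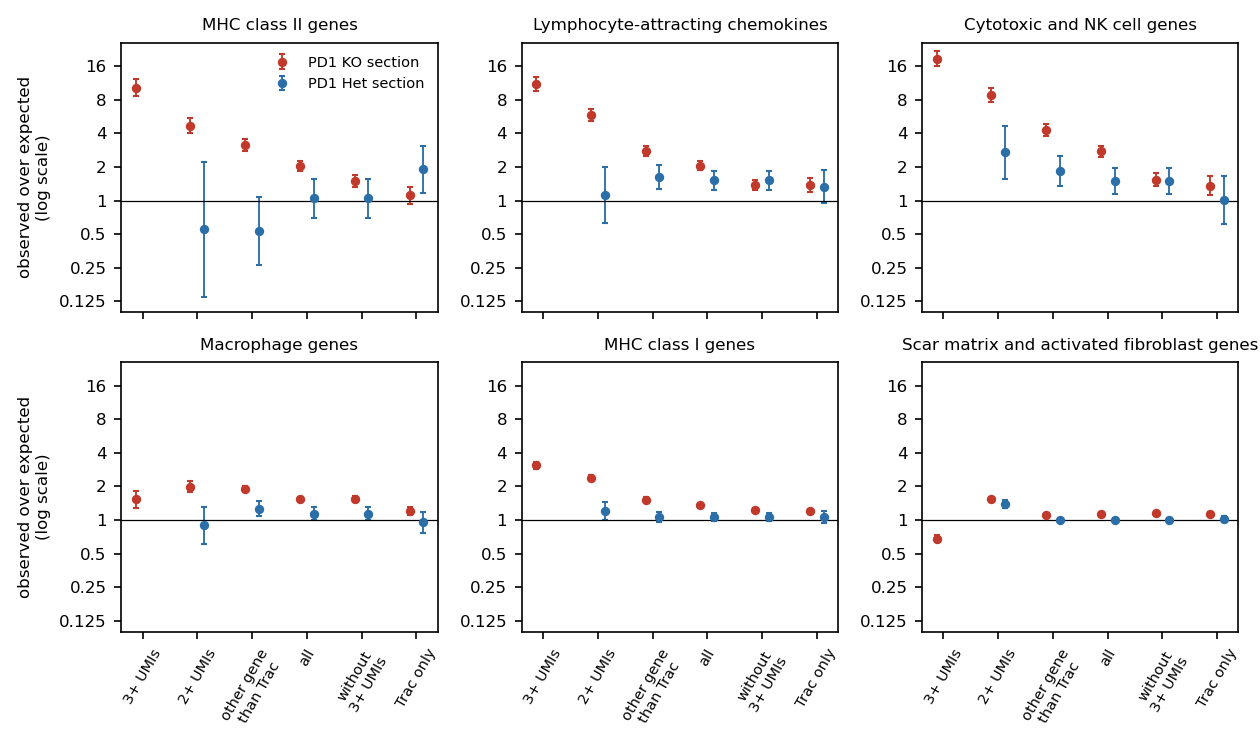
Observed over expected UMIs of 6 lists in subsets of the chosen spots (log axis, 95% Poisson intervals), PD1 KO section in red and PD1 Het section in blue; no PD1 Het spot had 3 or more UMIs. In the PD1 KO section class II genes stand at 10.3 in spots with 3 or more UMIs and at 1.12 in spots with Trac alone, while macrophage genes stay between 1.21 and 1.99. Among the PD1 KO spots with 3 or more UMIs, spot 3 holds 73 class II UMIs and spots 4 and 6 hold none.

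The leading PD1 KO spots each had their own company. Spot 1, with 3 UMIs of Trac and 1 each of Trbc1 and Cd3d among 30598, held 66 UMIs of H2-K1, 68 of B2m, 18 of Cd74 and 10 of Ccl8. Ranked among the spots of the section, it stood at percentile 98.1 for class II share and 57.6 for scar matrix share. Spot 2, with 3 UMIs of Trbc1 and 1 of Cd3e, held 15 of Cma1 and 7 of Tpsb2, which encode mast cell proteases, and the section's only Trdc UMI, a constant part of the gamma delta receptor.

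Spot 3, with 2 UMIs of Trbc1 and 1 each of Trbc2 and Cd3d among 17698, held 155 of the section's 243 UMIs of Ccl5. It also held 10 of 35 of Ccr7, 8 of 32 of Ccl22, 6 of 35 of Ly75, which encodes a dendritic cell uptake receptor, 37 of Cd74 and 17 of Cd52. It stood at percentile 99.8 for class II share and 4.70 for ventricular cardiomyocyte share. Spot 5 held 1 UMI each of Cd3d, Cd3e and Cd3g, together with the section's only Ifng UMI, 5 of its 10 UMIs of Xcl1, a chemokine of killer and CD8 T cells, and 7 of Ccl21a.

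Other leading spots differed in what they held. Spots 4 and 6 had 3 UMIs of the receptor chains and no class II UMI, at percentiles 7.17 (spot 4) and 41.6 (spot 6) for macrophage share, and spot 6 stood at 96.5 for ventricular cardiomyocyte share. Spot 4 held 4 of the section's 35 UMIs of Ccr7, 5 of Ccl5 and 1 of Ccl22, genes also seen in spot 3. Spot 13, with 2 UMIs of Trbc1, stood at 99.2 for scar matrix share and 98.9 for macrophage share, and held 26 of 71 UMIs of Arg1, 43 of 53 of Saa3, an acute phase gene, and 74 of C3, the central complement gene. Of the 6 PD1 Het spots with 2 UMIs, 4 had no class II UMI, and spot 5, with 2 UMIs of Trac, stood at 96.5 for scar matrix share and 82.1 for macrophage share.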

How the data were processed

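The deposited values are unnormalized UMI counts for every gene in every spot. The authors made them with Space Ranger 1.1.0, as stated in the matrix headers, on builds listed as mm10 and GRCm38 in the submitters' processing notes. How spots under tissue were selected, and with which annotation, was not given in the sources used here. Spot positions were not used. Gene positions came from GENCODE vM21 and promoters from RefSeq on GRCm38.p6, which had entries for Cd3d, Cd3e and Cd3g among the 6 genes of the rule; all symbols came from the deposited feature tables.

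Spots under 500 UMIs were left out, which kept 851 spots in PD1 KO and 811 in PD1 Het. Within each section, expected UMIs were the rate per UMI in spots without the 6 genes times the UMIs of the chosen spots, summed over 10 depth bins. Intervals are Poisson on the log scale for these ratios, exact Poisson for sums, exact binomial (Clopper-Pearson) for shares and exact conditional for PD1 KO over PD1 Het, all at 95%. A count of 0 allows 3 counts. Scripts used Python 3.11.15, numpy 2.4.6, scipy 1.17.1, pandas 2.3.3 and matplotlib 3.10.9, and were tested on simulated data; R 4.3.3 with edgeR 4.0.16 and DESeq2 1.42.0 gave alternative scaling factors.

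The members and the 34 other lists (425 genes, of which Cxcl11 and Ctgf were not matched) were chosen with earlier results of these data known. Named over all genes were the 12 with the highest of the smaller lower bounds and the 12 with the lowest of the larger upper bounds across the sections. Both sets come from genes with 20 or more UMIs expected per section; unnamed gene models and mitochondrial, ribosomal protein, sex-linked and red blood cell genes were left out. Within every list the rule also picked the 3 members with the most UMIs and those with the highest and lowest ratio; not all of these are printed, and some lists appear only in the plot of gene lists. Other genes were chosen after their values were seen. Alternatives were other depth bins, spot limits, totals, matching on matrix or macrophage share, thinning, stricter rules and leaving out spots or members.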

Additional observations from a re-analysis of the deposited data

Results flagged for a closer look

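In 4 lists the chosen spots of the PD1 KO section stood on one side of 1 and those of the PD1 Het section on the other, with intervals that exclude 1 in both. Each section is 1 animal, so the difference between the sections was not tested. Mast cell genes stood at 1.33 (1.11 to 1.61) in PD1 KO and 0.355 (0.196 to 0.645) in PD1 Het. Without the chosen spot richest in them they stood at 1.08 in PD1 KO and 0.298 in PD1 Het. In PD1 Het a mast cell UMI lay in 22.0% of chosen and 23.6% of matched spots, so the shares of spots were close. Lymphatic vessel genes stood at 1.19 (1.07 to 1.32) in PD1 KO, or 1.08 (0.966 to 1.22) without the 6 spots with 3 or more UMIs, and at 0.587 (0.436 to 0.790) in PD1 Het. Red blood cell genes stood at 1.14 (1.12 to 1.16) in PD1 KO and 0.765 (0.740 to 0.790) in PD1 Het. One chosen spot of the PD1 KO section held 5609 of the 19894 UMIs, and without the richest spot of each section the ratio was 0.846 in PD1 KO and 0.674 in PD1 Het, below 1 in both. The median chosen spot had 40.9 red blood cell UMIs per 10000 against 43.0 in spots without the transcripts in PD1 KO, and 30.4 against 27.8 in PD1 Het, each of opposite direction to the sum. Ventricular cardiomyocyte genes stood at 0.965 (0.960 to 0.969) in PD1 KO and 1.02 (1.01 to 1.03) in PD1 Het.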

How the results depend on the processing

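Ratios of 7 lists, the share of chosen spots, the gene counts and the PD1 KO to PD1 Het ratio were recomputed under each alternative. No value that was at least 1.5-fold in either direction changed direction, and of 287 values 178 moved by less than their counting interval and 109 by more. In the following, lists are T cell signalling (S), cytotoxic and killer cell (N), macrophage (P), class II (II), class I (I), chemokine (C) and scar matrix (M) genes. With at least 2 UMIs of the 6 genes the share was 1.65% in PD1 KO and 0.740% in PD1 Het, and the ratios were S 1.83, N 8.76, P 1.99, II 4.68, I 2.38, C 5.80 and M 1.56 in PD1 KO and S 1.87, N 2.70, P 0.895, II 0.552, I 1.20, C 1.12 and M 1.39 in PD1 Het. With the CD3 genes alone the share was 2.35% in PD1 KO and 1.36% in PD1 Het, and the ratios were S 1.5, N 6.78, P 2.17, II 3.55, I 1.81, C 3.86 and M 1.06 in PD1 KO and P 0.941, II 0.588, I 0.968 and M 0.872 in PD1 Het. With the receptor chains alone, P was 1.33 in PD1 KO. Thinned shares in 1 draw were 4.65% in PD1 KO and 3.29% in PD1 Het at 10000 UMIs, and 2.36% in PD1 KO and 2.26% in PD1 Het at 5000; the means over all draws were 4.48% in PD1 KO and 3.43% in PD1 Het at 10000, and 2.42% in PD1 KO and 1.86% in PD1 Het at 5000.

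Matching on macrophage share and depth gave N 2.14, P 1.15, II 1.46, I 1.27 and M 1.03 in PD1 KO, and matching on scar matrix share and depth gave P 1.44 and M 1.03 in PD1 KO and M 0.929 in PD1 Het. Without depth matching P was 1.62 and M 1.17, with 20 depth bins M was 1.14, and with totals free of mitochondrial and red blood cell genes M was 1.16, all in PD1 KO. Leaving out the chosen spot richest in the list gave N 1.73, P 1.45, II 1.75, I 1.29, C 1.47 and M 1.08 in PD1 KO and M 0.947 in PD1 Het. Leaving out the member with the most UMIs gave S 2.42, N 4.30, I 1.43 and C 4.04 in PD1 KO and S 2.64 and C 1.07 in PD1 Het.

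Means over draws and subsets of the chosen spots were added after seeing the data. Without spots with 3 or more UMIs, N was 1.54, II 1.49, I 1.22, C 1.37 and M 1.16 in PD1 KO. Spots with exactly 1 UMI gave S 1.02, N 1.53, P 1.45, II 1.44, I 1.16, C 1.33 and M 1.04 in PD1 KO and M 0.948 in PD1 Het. Spots with Trac alone gave N 1.35, P 1.21, II 1.12, I 1.20 and C 1.39 in PD1 KO and N 1.01, P 0.957 and II 1.90 in PD1 Het, and spots with another gene gave N 4.29, P 1.89, II 3.14, I 1.52 and C 2.77 in PD1 KO and II 0.535 in PD1 Het. Spots with another gene and fewer than 3 UMIs gave S 0.981, N 1.79, P 1.95, I 1.25, C 1.35 and M 1.19 in PD1 KO and II 0.535 in PD1 Het. Without spot 3, N was 1.73, II 1.75, I 1.30 and C 1.47 in PD1 KO. The cause of these shifts was not tested.

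Genes at least 1.5-fold higher and lower in both sections numbered 3 (0.0494%) and 4 (0.0659%) of 6071 with at least 10 UMIs expected. With at least 1 UMI expected they numbered 151 and 151 of 11995 (1.26% each), and with at least 50 they numbered 0 and 0 of 1374. Of the 3548 genes with at least 20, they numbered 0 and 1 (0.0282%) with matching on matrix share. With totals free of mitochondrial and red blood cell genes they numbered 2 (0.0564%) and 0 of the 3548. No paired analysis was possible because each genotype has 1 section. The chosen spots summed to 2316807 UMIs in PD1 KO and 634154 in PD1 Het, which limits what single genes can show. Intervals ignore the spread between animals, and most chosen spots rest on 1 UMI.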

Other observations

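Il2, the T cell growth factor gene, had 174 UMIs in the PD1 KO section and 10 in the PD1 Het section, with at most 1 in a chosen spot. In the chosen spots it had 17 UMIs against 16.6 expected in PD1 KO and 0 against 0.546 in PD1 Het. Tox, which exhausted T cells express, had 1 UMI against 6.02 in PD1 KO and 1 against 0.443 in PD1 Het. Mmrn1, expressed in lymphatic vessels, had 9 against 0.559 in PD1 KO, 5 of them in 1 spot, and 0 against 2.01 in PD1 Het. These genes were chosen after their values were seen.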
